A study of Mus musculus with 12 samples.

Results

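Mouse embryonic stem (ES) cells of 3 kinds were compared through an indirect ratio. The kinds were wild type, Dicer1-null, and Dicer1-null labelled as overexpressing either Dnmt1 or Dnmt3a together with Dnmt3b. The lines of the last kind are called the labelled lines. They were never hybridised against wild type, so their distance from it was the sum of 2 measured log2 ratios that met in the Dicer-null RNA. All 12 arrays of the series entered this sum: 4 of Dicer-null over wild type, 4 of the Dnmt1-labelled line over Dicer-null and 4 of the Dnmt3a,3b-labelled line over Dicer-null. There were 2 Dicer-null clones, 27G5 and 27H10. Each clone gave its own RNA for the Dicer-null cells and for both labelled lines, while 1 wild-type RNA served both clones. The labelled lines carried the Dicer1 deletion as well, and the cells grew on gelatin with leukaemia inhibitory factor, with no other treatment. The labels do not give the deleted exons, the promoter or vector behind the overexpression, or whether the labelled lines were clones or pools.

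Dicer cuts microRNA precursors into mature microRNAs, and ES cells without it survive but differentiate poorly. The most abundant microRNAs of mouse ES cells, those of the miR-290 cluster and their miR-302 relatives, share 1 seed and repress, among others, the retinoblastoma-family gene Rbl2. Dnmt1 copies DNA methylation at CpG dinucleotides after replication, and Dnmt3a and Dnmt3b place it anew. The comparison with wild type asks which genes that differ without Dicer are back at their wild-type level in the labelled lines, which stay where they were, which go further away, and which differ in the labelled lines alone.

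For each clone, N denotes the log2 ratio of Dicer-null over wild type. M denotes the mean log2 ratio of both labelled lines over Dicer-null. L, the sum of N and M, is the labelled lines over wild type. Each value is a mean ± SD over the 2 clones (n = 2), each clone value being a mean of dye-swapped arrays. Calls are genes whose limma p, adjusted by Benjamini-Hochberg over the 19377 genes tested, was under 0.05. The labels name no separate cultures, so each p covers only how far these RNAs differ, which may be technical. With a single wild-type RNA, variation among wild-type cultures is not covered.

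The Dicer-null RNA stands in both N and M with opposite sign. A shared error of that RNA moves N and M apart and cancels in L, so such an error and a return to the wild-type level cannot be told apart in N and M. L estimated from the separate channels, without the Dicer-null RNA, is therefore given for the groups that moved.

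These microRNAs are shown because they need Dicer to mature and their listed targets are described further on. The microRNAs themselves were not measured here. The capitals mark the seed, bases 2 to 8 from the 5′ end, and the sequences are from RefSeq. The miR-290 and miR-302 members share the seed AAGUGCU, and let-7a has GAGGUAG.
miR-291a-3p: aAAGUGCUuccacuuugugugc
miR-294-3p: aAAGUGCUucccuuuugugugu
miR-295-3p: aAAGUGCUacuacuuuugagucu
miR-302b-3p: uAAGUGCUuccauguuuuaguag
let-7a-5p: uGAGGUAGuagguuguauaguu

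Promoters of genes that carry the groups below are shown, each spanning the start of its gene (RefSeq, GRCm38.p6), with every CpG dinucleotide, the substrate of the labelled enzymes, in capitals. Csf1 and Krt7 stand for genes back at wild type, Lin28a and Fgf5 for genes that moved further, and Prl3d1 for genes that differed in the labelled lines alone.
Csf1 (chr3:107760420-107760719, minus strand): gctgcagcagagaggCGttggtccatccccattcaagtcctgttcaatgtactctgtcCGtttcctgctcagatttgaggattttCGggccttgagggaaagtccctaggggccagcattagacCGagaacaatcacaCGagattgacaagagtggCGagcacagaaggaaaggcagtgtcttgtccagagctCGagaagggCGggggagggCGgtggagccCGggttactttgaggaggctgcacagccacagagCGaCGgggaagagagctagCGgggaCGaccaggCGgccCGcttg
Krt7 (chr15:101412153-101412452, plus strand): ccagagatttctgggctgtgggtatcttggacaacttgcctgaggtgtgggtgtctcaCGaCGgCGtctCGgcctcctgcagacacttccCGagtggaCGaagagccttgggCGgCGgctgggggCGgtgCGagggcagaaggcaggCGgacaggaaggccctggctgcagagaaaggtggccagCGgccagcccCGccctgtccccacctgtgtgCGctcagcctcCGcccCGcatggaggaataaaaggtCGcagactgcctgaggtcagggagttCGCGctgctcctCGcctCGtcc
Lin28a (chr4:134018767-134019066, minus strand): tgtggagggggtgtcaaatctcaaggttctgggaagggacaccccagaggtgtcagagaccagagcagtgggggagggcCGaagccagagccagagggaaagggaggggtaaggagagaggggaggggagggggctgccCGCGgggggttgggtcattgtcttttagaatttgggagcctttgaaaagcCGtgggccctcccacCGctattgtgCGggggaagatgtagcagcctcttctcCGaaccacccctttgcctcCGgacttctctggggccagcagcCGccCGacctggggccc
Fgf5 (chr5:98253934-98254233, plus strand): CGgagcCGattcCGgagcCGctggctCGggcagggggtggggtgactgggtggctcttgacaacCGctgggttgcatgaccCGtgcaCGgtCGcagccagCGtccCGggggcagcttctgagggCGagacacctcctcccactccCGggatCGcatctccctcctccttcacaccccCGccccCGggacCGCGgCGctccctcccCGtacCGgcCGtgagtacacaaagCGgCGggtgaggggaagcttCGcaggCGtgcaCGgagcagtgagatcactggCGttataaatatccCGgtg
Prl3d1 (chr13:27093939-27094238, plus strand): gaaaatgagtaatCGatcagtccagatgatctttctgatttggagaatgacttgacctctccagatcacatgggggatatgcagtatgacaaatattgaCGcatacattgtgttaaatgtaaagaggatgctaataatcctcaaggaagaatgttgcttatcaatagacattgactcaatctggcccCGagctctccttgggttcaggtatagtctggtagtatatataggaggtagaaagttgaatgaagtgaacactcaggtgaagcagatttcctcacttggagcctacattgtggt
The 32841 promoters of the RefSeq table held a median of 7 CpGs in the same length, with quartiles of 3 and 20, and 43.6% held 5 or fewer. The 12380 promoters matched to genes tested held a median of 19, with quartiles of 9.5 and 27, and 15.1% held 5 or fewer. CpG was searched as the letters CG, which read alike on both strands. Csf1 held 16, Lin28a 10 and Prl3d1 3, below that median, and Krt7 21 and Fgf5 29, above it. Only 12380 of the 19377 genes tested matched a promoter by symbol (63.9%), and the groups described below matched at 43.3% to 80%, so a comparison of CpG content between those groups is void and none is given.

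The arrays were alike in quality. The median signal was 110 to 133 in green and 229 to 327 in red, and 61.6% to 68.6% of probes were well above background in a channel. Dye-swapped arrays of a pair correlated at r = 0.735 to 0.902 over the genes tested, except the Dnmt3a,3b pair of clone 27G5 at 0.517. Without the first array of that pair, an alternative added after seeing the data, 6136 genes were called in L and 239 were returned. All 8 ES cell markers were above background in every kind of cell, with a mean log2 signal of 13.34 in wild type and 13.96 to 14.17 elsewhere. With so few arrays, precision is limited throughout.

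The targeted genes were read first. Dicer1 was lower in the labelled lines than in wild type at both probes. Its brighter probe (build mm7, chromosome 12, 102216485 to 102216544, minus strand) had N of -0.54 and -0.63 in clones 27G5 and 27H10, and L of -1.34 ± 0.06 (adjusted p = 0.00153). Its second probe had L of -5.48. Dnmt1 had ratios of 0.12 and 0.42 in the line labelled for it, and L of 0.55 ± 0.11 (adjusted p = 0.0351), and 9 of 19 alternatives did not call it. Dnmt3a and Dnmt3b were lower, not higher, in the line labelled as overexpressing them: -0.38 and -1.74 for Dnmt3a, and -1.47 and -0.61 for Dnmt3b, in clones 27G5 and 27H10. Other probes of Dnmt3a gave L of -1.69 to 0.32. Whether these probes lie in the introduced sequence is not given in the labels, so the readings do not test the overexpression. Directions below belong to the lines as labelled.

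Over wild type, 7081 genes were called in the labelled lines (36.5%): 3715 higher (19.2%) and 3366 lower (17.4%). Of these, 2144 were at least 2-fold higher (11.1%) and 1781 at least 2-fold lower (9.19%). For comparison, 7880 genes were called in Dicer-null over wild type (40.7%) and 7985 in the labelled lines over Dicer-null (41.2%). Changes of at least 2-fold were called for 9.67% higher and 9.24% lower in N, and for 5.4% higher and 4.63% lower in M. When the correlation that the shared RNAs give the 6 ratios was modelled, 3142 genes were called in L, 1754 in N and 1476 in M. Without the 27G5 or the 27H10 ratio to wild type, 2920 and 3103 were called in L. The Dnmt3a,3b and Dnmt1 lines were then compared with each other, a contrast that neither L nor the groups use. Limma called 0 genes between them (0%), 279 passed an unadjusted p under 0.05 (1.44%), and the absolute difference had a median of 0.11 over all genes. The spread used in that contrast includes variation of the Dicer-null RNA, which cancels between the lines, and fewer genes passed than a p under 0.05 gives by chance. The 0 calls therefore do not show that the lines are alike. L averages the lines, so they are described together, with both lines' values where they help.

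Of the genes tested, 3664 (18.9%) differed at least 2-fold between Dicer-null and wild type with 1 sign in both clones, and the rule sorted them by what M did. Returned genes, with M called in the opposite direction and L within 0.5 of 0 in both clones, numbered 252 (1.3%). A further 1078 were partly returned (5.56%), with M of at least 0.5 towards wild type, and 25 went past wild type (0.129%). Genes with M within 0.5 of 0 in both clones, called unchanged, numbered 1176 (6.07%). Genes that moved further, with M of at least 0.5 away from wild type, numbered 422 (2.18%), and 711 fitted no group (3.67%). New genes, with N within 0.5 of 0 in both clones and M and L both called at 2-fold or more, numbered 291 (1.5%). With the shared RNAs modelled, the groups held 116 returned, 210 partly returned, 5 past, 645 unchanged, 65 moved-further and 172 new genes. Without the 27G5 ratio to wild type, 406 genes were returned and 11 past wild type. Without the 27H10 ratio, 670 were partly returned and 12 past wild type. With the arrays numbered 1 alone, 652 moved further. Since the ratios themselves chose the members, group sizes and values are descriptions.

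**Figure D1:**
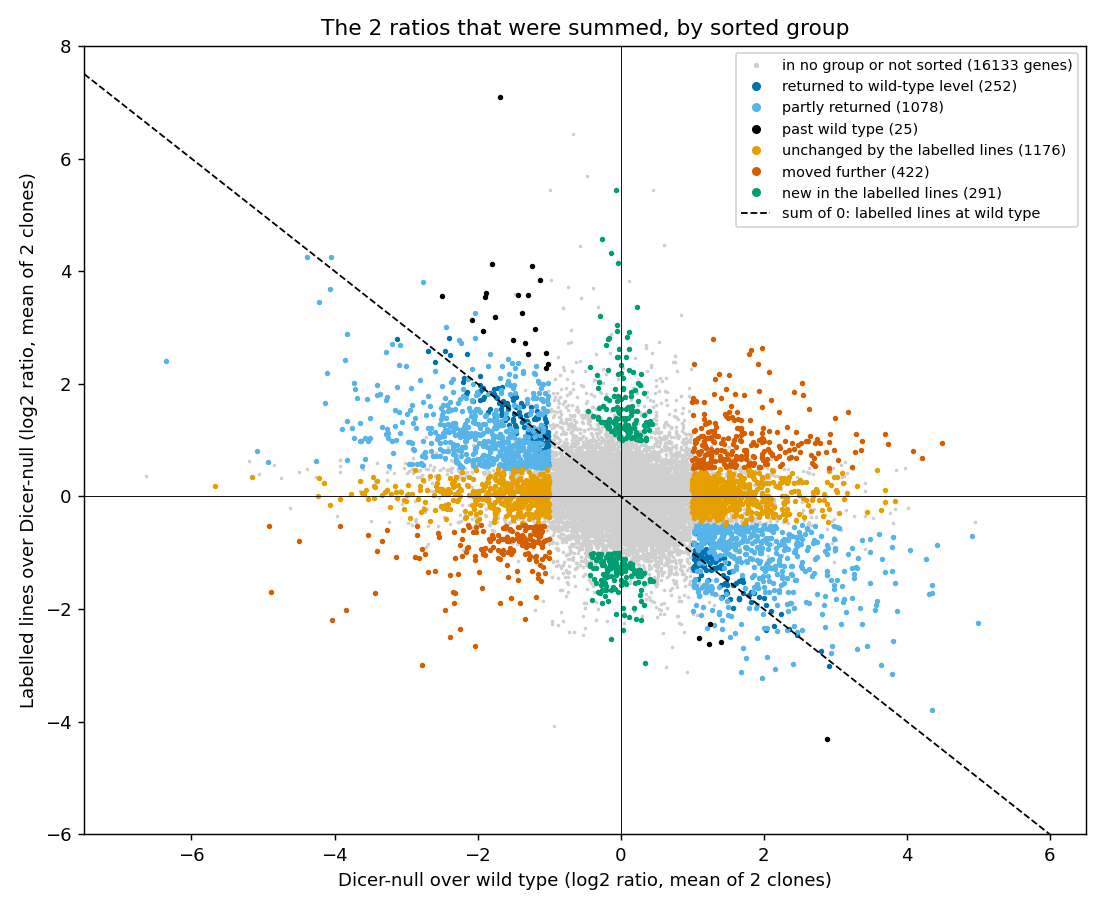
Each point is 1 of the 19377 genes tested, with N (Dicer-null over wild type) on the x axis and M (labelled lines over Dicer-null) on the y axis, both log2 ratios averaged over 2 clones. On the dashed line the sum is 0: the 252 returned genes lie along it, the 1176 unchanged genes along the horizontal axis, the 422 that moved further in the outer quadrants, and the 291 new genes along the vertical axis.

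Returned genes that had been low in Dicer-null cells included secreted factors and epithelial keratins. Csf1, the growth factor of macrophages, had N of -3.28 and -2.96 in clones 27G5 and 27H10. It had 3.01 and 2.25 in the Dnmt1 line and 3.14 and 2.79 in the Dnmt3a,3b line over Dicer-null. Its L was -0.33 ± 0.16 (95% interval ± 0.63), so the mean of the labelled lines ended within 0.5 of wild type in both clones. Taken singly, the Dnmt1 line of 27H10, at 2.25 against N of -2.96, stayed further below wild type than 0.5. Krt7, a keratin of simple epithelia and trophoblast, had N of -2.49 and -2.31, ratios of 2.61 to 3.09 over Dicer-null in the 4 labelled lines, and L of 0.41 ± 0.02. All 4 Krt7 ratios over Dicer-null exceeded the size of the loss, by little, and its second probe had L of 0.73.

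Krt18, the partner keratin of Krt8, met the rule but cannot be placed. Its spot was saturated on 4 of 4 wild-type channels and on 7 of 8 of the labelled lines, which caps both ends of L, so its L of -0.08 ± 0.28 does not measure a return. Ccl2, a monocyte-attracting chemokine, had N of -2.39 and -2.50 and L of 0.15 ± 0.22. Stard10, a lipid-transfer protein (L of -0.18 ± 0.23), Sgce, a sarcoglycan from an imprinted locus (L of -0.34 ± 0.21), Procr, the protein C receptor (L of -0.09 ± 0.26), and Selenon, a selenoprotein (L of 0.39 ± 0.14), behaved alike, with N between -2.21 and -1.96. In all, 139 of the 252 had been low, with a median N of -1.31 and a median L of -0.09.

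The 113 returned genes that had been high had a median N of 1.28 and a median L of 0.07. Aass, a lysine-degrading enzyme, had N of 2.25 and 2.69. Its ratios over Dicer-null were -1.84 and -3.22 in the Dnmt1 line and -2.14 and -2.63 in the Dnmt3a,3b line, and L was 0.01 ± 0.35. The spread between clones was thus of the same order in N and M, and the clone that was higher without Dicer fell further. The limit on L in both clones, and the Dicer-null RNA shared by N and M, favour such a pattern. It is therefore no result about the clones. Epha4, an ephrin receptor, had N of 1.27 and 1.57 and L of -0.37 ± 0.02, and its second probe had L of 0.24. Ptprv, a receptor phosphatase, had L of 0.17 ± 0.01, and Nin, the centrosomal protein ninein, 0.35 ± 0.12. Ms4a10 (L of 0.04 ± 0.21), the defensin Defa23 (-0.16 ± 0.19) and Rapgefl1 (0.07 ± 0.18) had N of 1.61 to 1.80.

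Other measures of the same RNAs follow as a description. The 95% interval of L lay within a 2-fold change of wild type for 222 of the 252, and both labelled lines taken singly lay within 0.5 of it for 236. Over all 19377 genes these counts were 10340 and 9273. The rule chose the 252 for L near 0, which largely fixes both of their counts. From separate channels, without the Dicer-null RNA, 220 of 252 (87.3%) lay within 0.5 in both clones, against 51.8% of all genes. The same share was 30.9% of the partly returned, 9.18% of the unchanged, 4.5% of the moved-further and 17.5% of the new genes. The 5 genes that went past wild type from above had a median L of -1.38 but -0.38 from separate channels, where 3 of the 5 lay within 0.5. The 92 further probes of 74 returned genes had N of the same sign for 93.5% and M for 94.6%. Further probes of genes in no group gave 79.8% and 71.3%. For N the partly returned, unchanged and moved-further groups had 94.9% to 95.5%, so that share is not particular to returned genes. L was within 0.5 in both clones for 56.5% of the 92, against 43% of further probes of genes in no group. Between the labelled lines, 12 of the 252 passed an unadjusted p under 0.05 (4.76%, against 1.44% of all genes) and 0 were called.

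The limit of 0.5 was a choice. Just inside it lay Arhgef10 (L of 0.18 ± 0.45), Baiap3 (0.19 ± 0.43) and Fam89a (-0.20 ± 0.42), and just outside it Anxa5, the annexin A5 gene (-0.43 ± 0.10), Aipl1 (0.20 ± 0.42) and Inka1 (-0.17 ± 0.46), which were partly returned. Limits of 0.3 and 0.7 gave 117 and 460 returned genes. With scanner intensities corrected by normexp and loess the group held 142 genes, of which 108 were shared. That is 42.9% of the 252 and 76.1% of the 142. With the arrays numbered 2 alone, 125 of the 252 stayed returned (49.6%), and with those numbered 1 alone 110 (43.7%).

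**Figure D2:**
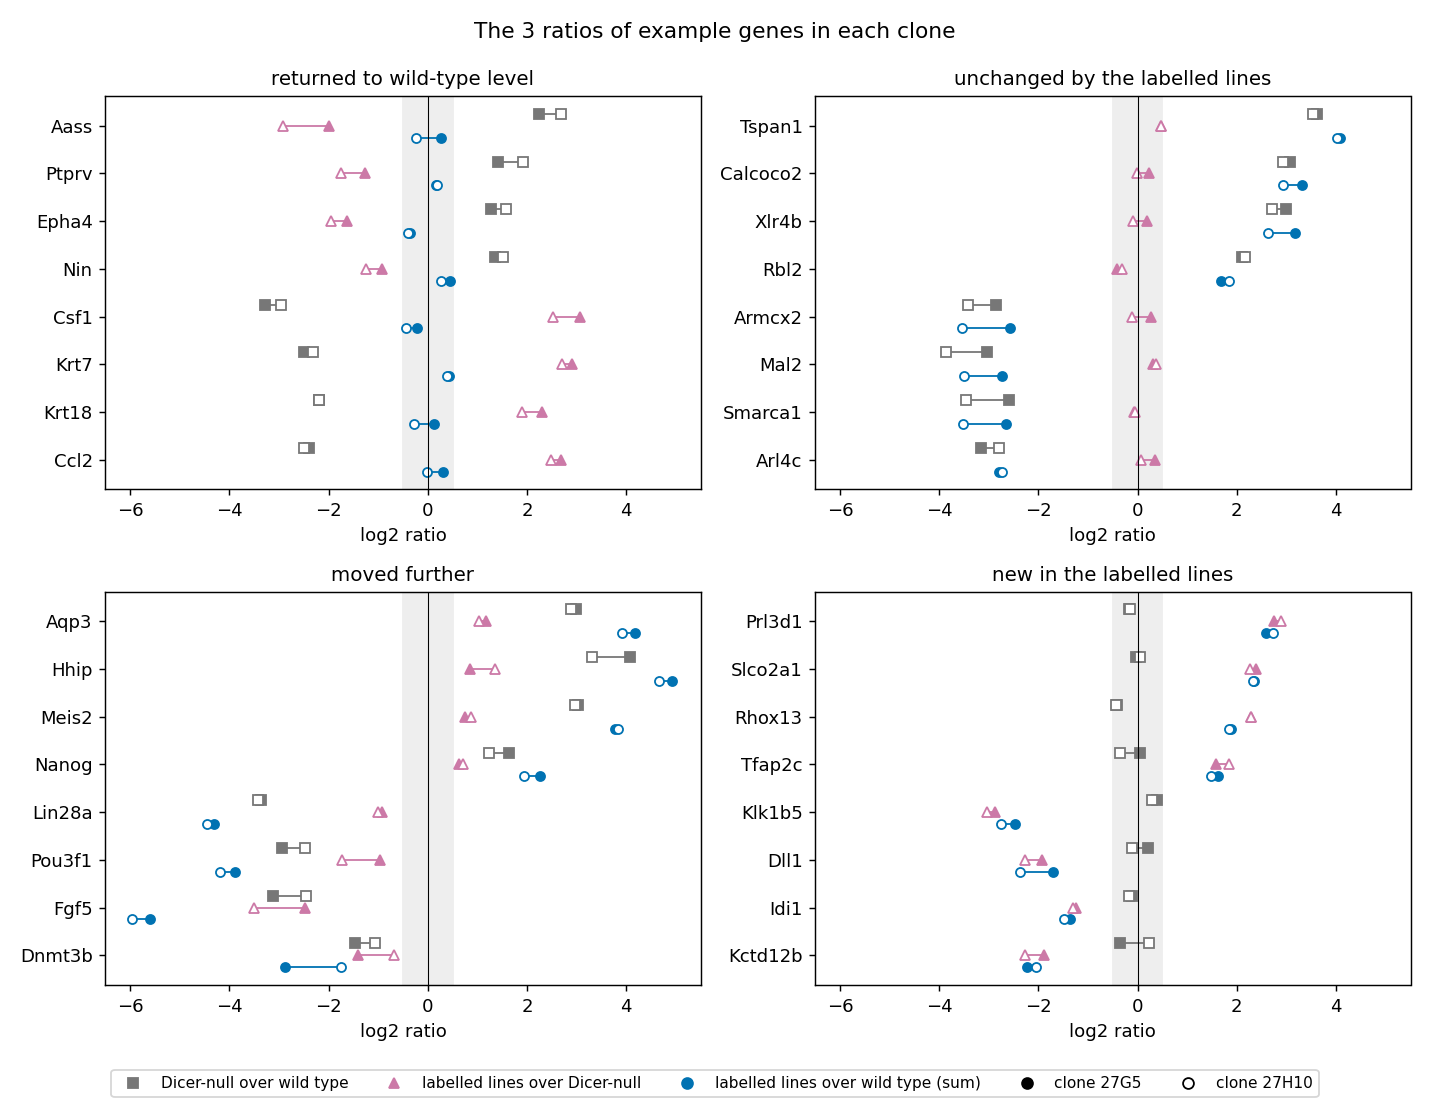
Log2 ratios of 8 example genes from each of 4 groups, on the x axis, with filled symbols for clone 27G5 and open symbols for 27H10. Squares are Dicer-null over wild type, triangles the labelled lines over Dicer-null and circles their sum; the grey band spans 0.5 on either side of wild type, and holds the circles of returned genes, the triangles of unchanged genes and the squares of new genes.

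The 1078 genes of the partly returned group had M towards wild type without meeting the limits of the returned group. Of these, 132 had crossed to the other side of wild type, and 19 of them were called there, among them Plac1 and H19. Among those low without Dicer, Prss23, a secreted serine protease, had N of -6.49 and -6.22 and M of 2.40 ± 0.11, and remained at L of -3.95 ± 0.08 (adjusted p = 0.000344). Tagln, the actin-binding protein transgelin, had N of -4.26 ± 0.14 and M of 0.63 ± 0.01, with L of -3.63 ± 0.13. Lgals1, galectin-1, had L of -1.82 ± 0.11 after N of -3.55 ± 0.07, and Mogat2, an acylglycerol transferase, L of -2.48 ± 0.45. Among those high without Dicer, the glutamate cyclase Dglucy (N of 4.27 ± 0.08, L of 3.16 ± 0.30), the antithrombin gene Serpinc1 (4.99 ± 0.08, 2.75 ± 0.43) and Wdfy4 (4.35 ± 0.53, 2.78 ± 0.92) kept most of the difference. The second probe of Serpinc1 had L of 0.36. On the side of N, 530 of the 1078 were still called against wild type.

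Sct, the hormone secretin, went past wild type. It had N of -1.19 and -1.29, and 3.72 to 4.60 over Dicer-null in the 4 labelled lines, which left L at 2.84 ± 0.39 (adjusted p = 0.000956). Gata3, a trophoblast transcription factor, had N of -1.20 ± 0.07, M of 2.98 ± 0.37 and L of 1.78 ± 0.30. Dcn, the matrix proteoglycan decorin, went the other way, with N of 2.88 ± 0.33, M of -4.31 ± 0.43 and L of -1.43 ± 0.76, and was above background on 4 of 8 channels of the labelled lines. The call of Dcn was lost under 3 of 19 alternatives, and its L was -0.46 from scanner intensities. Of the 25 genes past wild type, only 1 kept this group with scanner intensities.

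Unchanged genes kept the Dicer-null level, and 1158 of the 1176 were called in L (98.5%, against 36.5% of all genes). The rule, with N called at 2-fold or more and M within 0.5 of 0, nearly fixes that share. Tspan1, a tetraspanin, had N of 3.61 and 3.54, ratios of 0.32 to 0.61 over Dicer-null and L of 4.05 ± 0.04. The selective-autophagy receptor gene Calcoco2 (L of 3.12 ± 0.27), Lrrn2 (3.17 ± 0.25), the X-linked Xlr4b (2.90 ± 0.39), Ppp1r14d (3.35 ± 0.31) and Gm428 (3.37 ± 0.33) were the other leading genes that stayed high. On the low side, Mal2 had N of -3.04 and -3.87 and ratios of 0.17 to 0.53 over Dicer-null, which left L at -3.12 ± 0.54. The chromatin remodeller Smarca1 (-3.09 ± 0.61), the small GTPase Arl4c (-2.76 ± 0.04), Armcx2 (-3.06 ± 0.67) and the scavenger receptor Colec12 (-3.36 ± 0.57) also stayed low. For Smarca1, the ratios over Dicer-null were -0.90 to -0.42 on the arrays numbered 1 and 0.17 to 0.62 on those numbered 2. Of 603 further probes of these genes, 94.9% had N of the same sign and 68.2% had M within 0.5 in both clones, against 79.8% and 60.5% for genes in no group.

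Gene lists are described by counts of called members, to be read against all genes: 20.5% higher and 20.1% lower in N, 21.5% and 19.7% in M, and 19.2% and 17.4% in L. Of 21 listed targets of the miR-290 cluster, 5 were sorted as unchanged. Among the 21, 14 were higher and 3 lower in Dicer-null cells (20.5% and 20.1% of all genes), and in the labelled lines 11 were higher than wild type and 0 lower. Their medians were 0.80 for N, 0.14 for M and 0.86 for L, against 0.01, 0.02 and 0.01 over all genes. Rbl2 had N of 2.10 and 2.16, 4 ratios of -0.48 to -0.14 over Dicer-null, and L of 1.77 ± 0.12 (adjusted p = 0.000958), with 1.72 at its second probe. The ratios of Rbl2 over Dicer-null were -0.20 to 0.28 on the arrays numbered 1 and -0.98 to -0.49 on those numbered 2. Its L ran from 1.03 to 2.50 over the alternatives, and no alternative lost the call. The kinase Lats2 (L of 1.66 ± 0.32), Casp2 (1.37 ± 0.00), Ei24 (1.25 ± 0.05) and Zfp148 (0.86 ± 0.03) were the other targets sorted as unchanged. Partly returned were the Cdk inhibitor gene Cdkn1a (N of 1.33, M of -0.60, L of 0.74 ± 0.14, not called) and the Nodal antagonists Lefty1 and Lefty2, with N of 1.96 and 1.80 and M of -0.83 and -1.98, and Lefty2 had L of -0.18 ± 0.56. Of 21 genes of the small RNA machinery, 5 were higher and 3 lower in L (19.2% and 17.4% of all genes), with a median of 0.08. Among those higher, the Argonaute gene Ago1 (L of 1.63 ± 0.23) and the helicase Mov10 (2.14 ± 0.31) stayed high. On the list of Lin28 and let-7 targets, with 19 measured, 4 were higher and 7 lower in N, and 2 higher and 5 lower in M. In L 3 were higher and 6 lower (19.2% and 17.4% of all genes), with a median of -0.39.

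Of 22 genes of the naive pluripotent state, 12 were higher and 0 lower in N, 4 higher and 3 lower in M (21.5% and 19.7% of all genes), and 11 higher and 1 lower in L (19.2% and 17.4% of all genes). Klf2, Esrrb, Tfcp2l1, Nr0b1, Fbxo15 and Gdf3, most of them transcription factors of the naive network, were sorted as unchanged, with L of 0.78 to 1.43. Nanog, which guards self-renewal, and Tbx3 moved further: L was 2.10 ± 0.22 and 2.26 ± 0.11. The ratios of Nanog over Dicer-null were 0.71 to 1.47 on the arrays numbered 1 but 0.05 to 0.45 on those numbered 2. Its further move thus came mainly from the arrays numbered 1. Pou5f1, which every ES cell needs, had L of 0.44 ± 0.31 (adjusted p = 0.219).

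Fgf5 and Pou3f1 moved further among genes of the primed epiblast, the state ES cells enter when they leave naive pluripotency. Fgf5, the standard marker of that state, had N of -3.11 and -2.46 and ratios of -4.36 to -2.47 over Dicer-null. Its L was -5.78 ± 0.27 (adjusted p = 0.00094; -3.92 from scanner intensities), and it was above background on 6 of 8 labelled-line channels. Pou3f1, the neural and epiblast factor Oct6, had N of -2.70 ± 0.33, M of -1.34 ± 0.54 and L of -4.04 ± 0.21. Lin28a, the RNA-binding protein that blocks let-7 maturation, had N of -3.37 and -3.43, ratios of -1.30 to -0.57 and L of -4.37 ± 0.09. Over the list of 16 primed epiblast and neuroectoderm genes, 4 were higher and 4 lower in N, 2 higher and 11 lower in M (21.5% and 19.7% of all genes), and 4 higher and 7 lower in L. Exceptions were Pax6 (L of 1.87 ± 0.32) and Zic2 (1.11 ± 0.23), both higher.

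Of 29 signalling genes of the Nodal, Wnt and FGF pathways, 13 were lower in L and 3 higher, with a median of -1.22 (-0.75 from scanner intensities). The FGF feedback inhibitors Spry1, Spry2 and Spry4 had L of -1.85 ± 0.19, -1.86 ± 0.37 and -2.10 ± 0.12, and only the first had moved further. The Wnt targets Sp5 and Axin2 had L of -3.55 ± 0.90 and -2.49 ± 1.08. Outside this list, T, the mesoderm factor Brachyury, was above background on 0 of 8 labelled-line channels. From separate channels it was 6.38-fold or more lower than in wild type, but scanner intensities gave a smaller difference (L of -2.49). Other genes that moved further down were Plac8 (L of -5.15 ± 0.35), Klk8 (-3.75 ± 0.64) and Myc (-2.56 ± 0.17). The hyaluronan synthase Has2 had N of -3.7 and -3.98 and was above background on 1 of 8 channels of the labelled lines, so the size of its further fall is not measured. Dnmt3b itself belonged here, with L of -2.31 ± 0.79.

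Upward, 254 genes moved further. The water channel Aqp3 had N of 2.99 and 2.88, ratios of 1.01 to 1.21 in the 4 labelled lines and L of 4.04 ± 0.19. Adgrg6, an adhesion receptor (L of 4.89 ± 0.13, 2.93 at its second probe), Hhip, an inhibitor of Hedgehog ligands (4.79 ± 0.19), Meis2, a homeobox factor (3.81 ± 0.04), Gm9 (4.33 ± 0.71) and the ferritin-like Fthl17e (4.07 ± 0.63) led the group. The galectins Lgals4 and Lgals6, which are near-identical copies and may share signal, had L of 3.04 ± 0.24 and 3.16 ± 0.28. Of the genes that moved further in either direction, 178 of 422 (42.2%) were in the same group with scanner intensities.

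Genes of the trophoblast, the outer lineage of the embryo that forms the placenta, were found among the returned, past and new genes. Of 20 trophoblast regulators and keratins measured, 2 were higher and 12 lower in N, 15 higher and 0 lower in M, and 9 higher and 1 lower in L. The medians were -0.76 for N, 1.47 for M and 0.24 for L. Members lay on both sides of wild type, from Cdx2 at L of -1.42 to Elf5 at 2.22, with Tpbpa above background in the labelled lines alone. Hand1, Krt7, Krt8 and the saturated Krt18 were sorted as returned, Cdx2, Id2 and Plac1 in the partly returned group (Plac1 with L of 0.86 ± 0.50, called above wild type), and Tfap2c and Tpbpa new. Tfap2c, an AP-2 factor of trophoblast and germ cells, had N of 0.04 and -0.36 and ratios of 1.48 to 1.89. Its L was 1.55 ± 0.10 (adjusted p = 0.00232). Cdx2, which specifies trophectoderm, had N of -4.98 and -2.73 and L of -1.42 ± 0.40, not called. It was above background on 3 of 12 Dicer-null channels, so the sizes of N and M, and the gap between clones, are not measured. Elf5 was sorted as unchanged (L of 2.22 ± 0.15, 0.95 from scanner intensities), while Eomes (L of -0.23 ± 0.16) and Tfap2a (-0.02 ± 0.03) were not called.

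Of 10 trophoblast markers, 10 were above background in wild type, 9 in Dicer-null and 10 in the labelled lines. Their mean log2 signal was 9.93 in wild type, 9.08 and 9.15 in Dicer-null, and 10.45 to 10.82 in the 4 labelled lines. In bulk RNA, more cells of a type and more RNA per cell cannot be told apart. ES cell markers stayed at 13.96 or above in the same labelled lines. The part of trophoblast-like cells in the changes was not tested.

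Placental hormones of the prolactin family were far higher in the labelled lines. Of 11 measured, 10 were higher in M and 9 in L, and 0 and 1 were lower. In Dicer-null, 2 of the 11 were above background on all channels and 7 on fewer than 6 of 12, so the median M of 5.44 (2.42 from scanner intensities) is no measured size. Prl3d1, placental lactogen of trophoblast giant cells, was above background on all channels, which makes it the plainest case. It had N of -0.17 and -0.15, 2.95 and 2.78 in the Dnmt1 line, 2.56 and 2.98 in the Dnmt3a,3b line, and L of 2.66 ± 0.10 (adjusted p = 0.000436; 2.34 from scanner intensities). Prl7d1 stood well above background on 0 of 4 wild-type and 0 of 12 Dicer-null channels and on 8 of 8 of the labelled lines. From separate channels it was 5.48-fold or more over wild type there. Prl3d2, with 0 of 4 wild-type channels above background, was 16.3-fold or more over wild type by the same measure. Scanner intensities gave smaller differences, with L of 2.34 for Prl7d1 and 3.60 for Prl3d2, so these minima depend on the processing. Prl3b1 was the exception, at L of -0.52 ± 0.13. Members of this family are close in sequence and may share signal on a probe, so the number of separate genes that rose is uncertain. All 11 of their promoters held 5 or fewer CpGs (100%), with a median of 2.

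**Figure D3:**
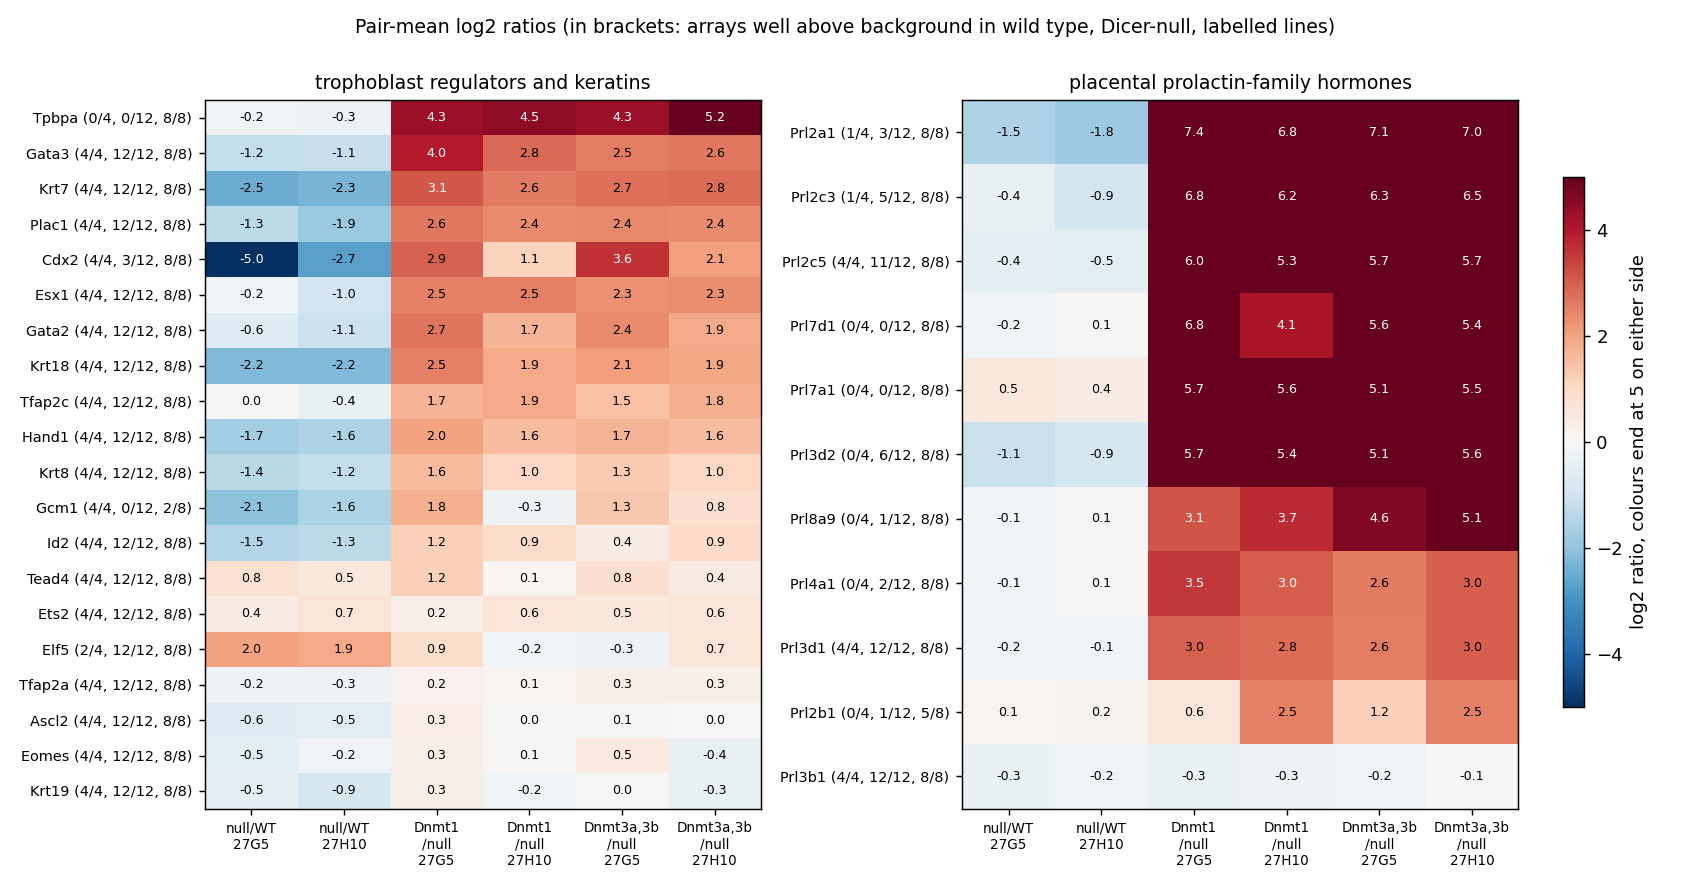
Pair-mean log2 ratios (colour and printed value) of 20 trophoblast genes and 11 prolactin-family genes, with rows ordered by M and columns for Dicer-null over wild type and the lines labelled Dnmt1 or Dnmt3a,3b over Dicer-null in each clone. Krt7, Krt8, Krt18, Hand1 and Cdx2 are blue in the first columns and red in the rest, Krt19 is pale in the rest, while most prolactin-family genes, among them Prl3d1 at N of -0.16 and M of 2.82, are pale in the first columns and red in the rest.

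Other new genes that were higher included Serpinb9g, a serpin of the placenta (L of 4.19 ± 0.15, 2.40 from scanner intensities, above background on 7 of 12 Dicer-null channels). The prostaglandin transporter Slco2a1 had N of -0.03 and 0.04, ratios of 2.06 to 2.63 and L of 2.33 ± 0.02. The lipid-droplet coat gene Plin2 (1.74 ± 0.14), the Src-family kinase gene Lyn (1.76 ± 0.24) and the X-linked homeobox gene Rhox13 (1.86 ± 0.02) followed. In each of these the clones of N lay within 0.5 of 0 on both sides, by the rule, and all 4 labelled-line ratios exceeded 1.

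Germline genes known to be silenced by DNA methylation were mostly higher than wild type: 16 of 25 in L, with 2 lower (19.2% and 17.4% of all genes), and a median L of 1.49 (1.19 from scanner intensities). In N, 12 were higher and 3 lower, and in M 14 were higher and 3 lower. The meiotic entry gene Stra8 had N of 1.6 and 1.5, ratios of 1.35 to 1.84 over Dicer-null and L of 3.15 ± 0.16, and moved further. Rhox6 and Rhox9 rose over Dicer-null, with M of 3.70 ± 0.05 and 2.89 ± 0.17, and had L of 3.31 ± 0.63 and 2.74 ± 0.42. The meiotic cohesin Smc1b had L of 4.32 ± 0.61, nearly all of it from N (3.85 ± 0.54). The Tudor gene Tdrd1 went against the list, at L of -2.54 ± 0.11.

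New genes that were lower included developmental signals and neural genes. Dll1, a Notch ligand, had N of 0.20 and -0.11, ratios of -2.46 to -1.87 and L of -2.05 ± 0.47 (adjusted p = 0.00152). Fgf18 (L of -2.15 ± 0.79), the axon-guidance mediator gene Crmp1 (-1.39 ± 0.72), the sodium channel subunit Scn3b (-1.90 ± 0.42), the kallikrein Klk1b5 (-2.61 ± 0.20), Kctd12b (-2.14 ± 0.13), Clmp (-1.99 ± 0.37) and Arhgef28 (-1.87 ± 0.16) were also new. The calls of Fgf18, Crmp1 and Scn3b against wild type were lost under 3, 4 and 3 of 19 alternatives.

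Genes of lipid synthesis were lower in the labelled lines. Of 28 genes of fatty acid and cholesterol synthesis, 17 were lower and 0 higher in M (19.7% and 21.5% of all genes), and 13 lower and 0 higher in L (17.4% and 19.2%), with medians of -0.03 for N, -0.47 for M and -0.50 for L. In N, 3 were lower and 1 higher. The desaturases Scd1 and Scd2 had M of -2.19 ± 0.08 and -2.40 ± 0.19, and L of -2.52 ± 0.42 and -3.11 ± 0.45. Idi1, an isoprenoid enzyme, had ratios of -1.5 to -1 in the 4 labelled lines and L of -1.42 ± 0.09 (adjusted p = 0.00145), and was the list's new gene. The sterol enzymes Fdps, Dhcr7 and Lss had L of -1.10 ± 0.18, -1.30 ± 0.14 and -0.99 ± 0.23, while the pathway regulators Srebf1 and Srebf2 were not called (L of -0.25 ± 0.25 and -0.18 ± 0.32).

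Of 24 genes of muscle-type actin filaments and their partners, 14 were lower and 0 higher in N, and 15 higher and 0 lower in M. In L 9 were still lower and 1 higher. The tropomyosins Tpm1 and Tpm2 had N of -1.53 and -2.69, M of 0.74 and 1.78, and L of -0.79 ± 0.17 and -0.91 ± 0.08. Calponin Cnn1 and the myosin light chain Myl9 had L of -4.82 ± 0.43 and -3.22 ± 0.32, with M of -0.20 and -0.53 that were not called. The fibrillar collagen Col1a1 moved further (M of -0.80 ± 0.31, L of -5.30 ± 0.14), although its other probes had L of -3.17 and -0.13. Col1a2 was unchanged (L of -3.31 ± 0.35), while Col4a1 and Col4a2 of basement membranes were returned (0.23 ± 0.22 and 0.31 ± 0.03). Of 10 fibroblast markers, 10 were above background in wild type and 8 in the other kinds of cell, and their mean log2 signal was 9.52 against 8.23 to 8.58. Their part in these values was not tested.

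Interferon-response and MHC class I genes were more often higher than lower: 20 of 34 were higher in L and 1 lower (19.2% and 17.4% of all genes), with a median of 0.84 (0.62 from scanner intensities). The 2-5A synthetases Oas1a, Oas1c and Oas3, which sense double-stranded RNA, had N of 1.79 to 2.36 and were unchanged, with L of 1.82 to 2.04. Oasl1 had N of 2.22 ± 0.11, M of 1.5 ± 0.16 and L of 3.72 ± 0.05. The ubiquitin-like Isg15 differed from these, with N of -2.06, M of 1.69 and L of -0.37 ± 0.00, and was returned. B2m, the light chain of MHC class I, had N of -0.89 and M of 0.87, which left L at -0.02 ± 0.29.

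Y-linked genes fell in the labelled lines: 8 of 8 were lower in M, and 5 higher and 0 lower in N. Partly returned were Kdm5d (N of 3.57, L of 1.65 ± 0.34), Uba1y (3.81, 3.09 ± 0.83), Zfy1, Zfy2 and Ddx3y (1.1, -0.67 ± 0.71). The list's median L was -0.04, and 0.03 from scanner intensities, so its sign is not settled.

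A small share of ES cells express genes of the 2-cell stage at a time. Of 10, 8 were higher and 0 lower in N, 2 higher and 4 lower in M, and 5 higher and 1 lower in L, and the medians were 2.41 for N, -0.19 for M and 1.65 for L (1.57, -0.15 and 0.77 from scanner intensities). Zscan4c had N of 3.56 and 3.26 and L of 3.64 ± 0.73, with ratios of the labelled lines over Dicer-null of 0.59 and 0.61 in clone 27G5 and of -0.06 and -0.23 in 27H10. Tcstv1 and Tcstv3, which are near-identical copies, moved further, with L of 3.46 ± 0.24 and 3.35 ± 0.30. Pramel6 was partly returned, with N of 2.29 and L of 0.76 ± 0.88. Pramel7 differed between clones: N was 3.75 and 1.5, and its L of 0.74 ± 1.73 was not called.

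Few housekeeping genes were called. Of 27 genes of DNA replication and mitosis, 1 was higher and 0 lower in L, with a median of 0.15, and of 25 ribosomal protein genes 1 was higher and 1 lower, with a median of 0.22. The ratios of Rpl32, Rpl19 and Rpl23 over Dicer-null were -1.34 to -0.93 on the arrays numbered 1. On those numbered 2 they were 1.34 to 1.84, so their means average opposite readings. Rpl32 lost its call under 8 of 19 alternatives. Retinoblastoma-family and cell-cycle entry genes had a median L of -0.12, with 7 of 27 higher and 5 lower, shares near those of all genes (19.2% and 17.4%), among them Rbl1 at 1.61 ± 0.40 and the Cdk inhibitor gene Cdkn1c at -0.74 ± 0.31, not called.

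**Figure D4:**
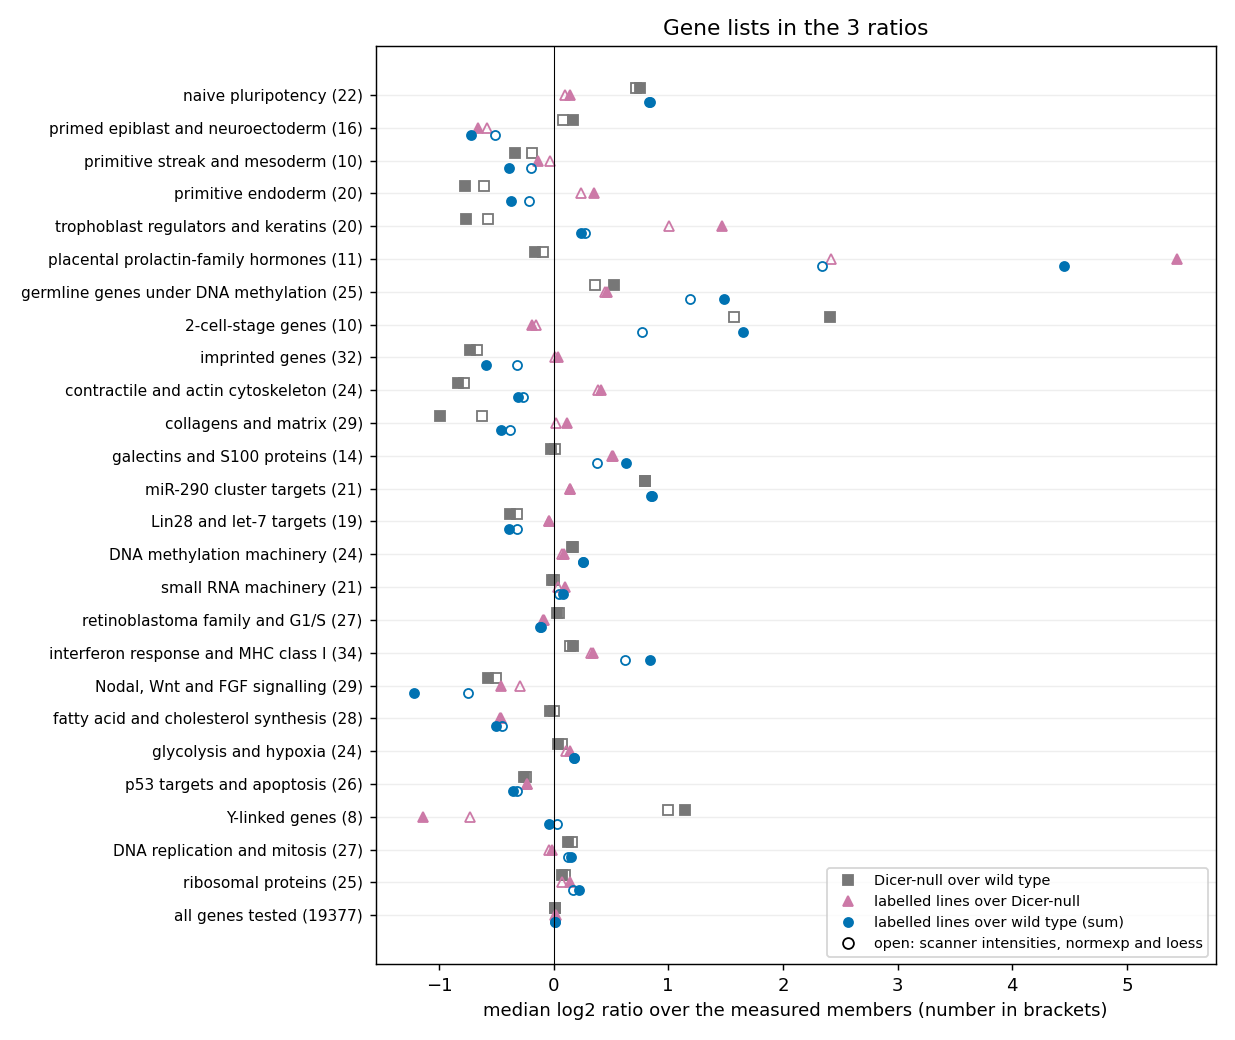
Median log2 ratios over the measured members of each gene list (numbers in brackets), with squares for N, triangles for M and circles for L; open symbols are from scanner intensities. The prolactin family has the highest plotted M (5.44; 2.42 open), which is no measured size since most members were near background in Dicer-null, trophoblast genes and Y-linked genes lie on opposite sides of 0 in N and M, and replication and ribosomal genes lie within 0.22 of 0 in all 3 ratios.

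**Figure D5:**
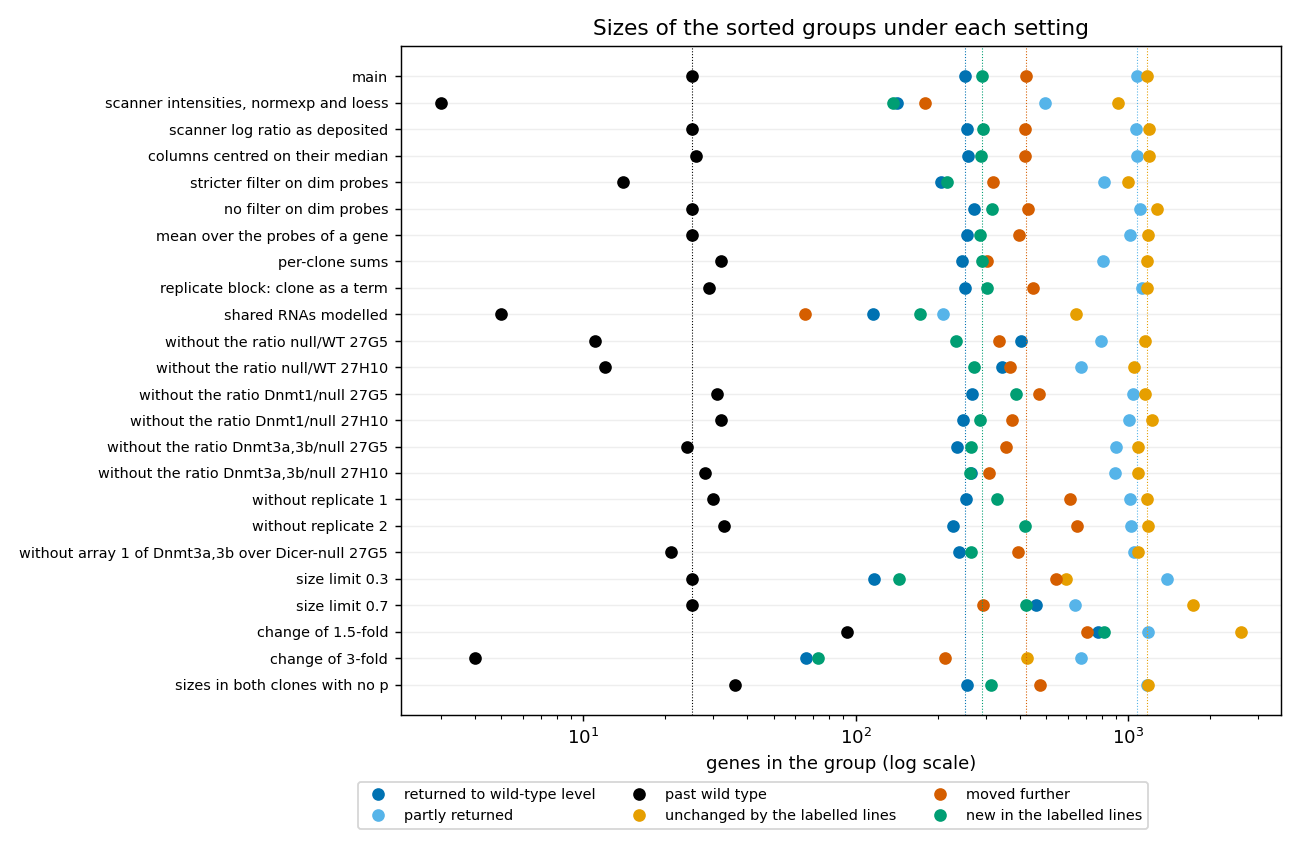
Number of genes in each group (x axis, log scale) under the main setting and each alternative, with dotted lines at the main counts. The returned group ranges from 66 genes with a 3-fold limit to 774 with a 1.5-fold limit around its 252, and falls to 142 with scanner intensities and 116 with the shared RNAs modelled.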

How the data were processed

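RNA of 7 kinds was hybridised on 12 two-colour arrays (6 dye-swapped pairs). The value table deposited by the authors held log2 ratios. The deposited scanner files held, per the file headers, channel intensity, log10 ratios and background flags (other values), from Agilent Feature Extraction. Above background, the table matched the scanner's log10 ratio put on the log2 scale. The table's centring is not given in the sources used here, and its columns had medians of -0.1376 to 0.169. No sample column was unused (0).

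Signs were turned so that every ratio read as named. Dye-swapped arrays were averaged, and 6 pair means were fitted with limma 3.58.1 in R 4.3.3 (3 coefficients, 3 residual degrees of freedom, eBayes, Benjamini-Hochberg over 19377 genes). A gene entered, by its brightest probe, if well above background on both arrays of at least 1 pair in the channel of 1 RNA, with values in all 6 pairs. The number in a sample's label is the array of a dye swap. The clone pairs the 3 ratios.

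Scripts were tested on simulated data. Scanner intensities were also processed with normexp (offset 50) and loess, and are called so in the text. Alternatives changed the source, centring, filter, probe, model, limits and arrays used. Members and the 25 gene lists were chosen with earlier results of these data known. Named genes are the targeted genes, Dnmt3l and Rbl2. Of each group they are, in each direction, the 8 (returned, new), 6 (unchanged, moved further) or 4 (partly returned, past) of greatest size that kept their group with scanner intensities. Of each list they are up to 5 members of greatest size. The 3 genes on either side of the 0.5 limit were added, and other names were chosen after their values were seen. Dnmt3l had L of -0.43 (adjusted p = 0.0741 in limma). Some genes are not reported here.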

Additional observations from a re-analysis of the deposited data

How the results depend on the processing

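Scanner intensities gave 142 returned, 497 partly returned, 3 past wild type, 180 moved further and 137 new genes. N and M kept their signs there in 252 of 252 returned, 422 of 422 moved-further and 271 of 291 new genes. Fewer kept their group: 108 of 252 returned, 178 of 422 moved-further, 99 of 291 new (34%) and 1 of 25 past genes (4%). N was there under 2-fold for 143 of the 252 returned, 195 of the 422 moved-further and 23 of the 25 past genes. The stricter filter left 14 past wild type. Per-clone sums called 4005 genes in M. With the shared RNAs modelled, 3142 genes were called in L (1707 higher, 1435 lower), 1754 in N and 1476 in M. The groups were then 116 returned, 210 partly returned, 5 past, 645 unchanged, 65 moved further and 172 new. A limit of 0.3 gave 117 returned, 592 unchanged and 144 new genes, and 0.7 gave 460 returned and 639 partly returned. A change of 1.5-fold gave 774 returned, 93 past, 2588 unchanged, 709 moved further and 815 new. A change of 3-fold gave 66 returned, 671 partly returned, 4 past, 427 unchanged, 213 moved further and 73 new. The cause of these moves was not tested beyond what each limit fixes.

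Leaving out 1 pair, 1 array or 1 dye orientation gave 2920 to 8257 genes in L (1574 to 4421 higher, 1303 to 4103 lower), 3323 to 8945 in N, 4863 to 9238 in M and 0 to 0 between the labelled lines. It gave 227 to 406 returned, 670 to 1049 partly returned, 11 to 33 past, 1056 to 1220 unchanged, 309 to 652 moved further and 233 to 419 new genes. Group members changed more than the counts. With the arrays numbered 2 alone, 49.6% of the returned, 67.7% of the unchanged and 56.7% of the new genes kept their group. With those numbered 1 alone the shares were 43.7%, 67.1% and 58.6%. The returned genes Krt7, Selenon and Nin were called against wild type under 3, 2 and 2 of 19 alternatives. With the arrays numbered 1 alone, L of Rpl32 was -1.82, of Rpl19 -1.73 and of Rpl23 -1.76, reversed from the main value. With the arrays numbered 2 alone it was 3.12, 2.68 and 2.58, and the cause was not tested. With clone as a replicate block, which pairs the ratios of 1 clone, 7123 genes were called in L (3767 higher, 3356 lower), 7830 in N and 7941 in M. The groups under that block held 252, 1126, 29, 1177, 449 and 303 genes in the order above, and no count moved by over 1.5 times. Over all alternatives, 3245 values of named genes kept direction and call, 103 lost the call, 40 gained it and 3 reversed. The number of arrays, and probes near background in 1 kind of cell, limit the precision.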

Other observations

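Imprinted genes, which are expressed from 1 parental copy, were more often lower than higher in the labelled lines over wild type. Of 32 measured, 14 were lower in L and 4 higher (17.4% and 19.2% of all genes), with a median of -0.59 (-0.32 from scanner intensities). Magel2, of the Prader-Willi region, and Asb4 moved further down, with L of -4.21 and -2.10 (-2.94 and -0.92 from scanner intensities). Phlda2, a placental growth regulator, had L of -3.31, and the zinc finger gene Plagl1 was higher at 2.52. Igf2, Dlk1, Grb10, Peg10 and Cdkn1c were partly returned. H19, sorted with them, had N of -1.12 and ended called above wild type at L of 0.81.

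Of 20 primitive endoderm genes, 8 were lower in L and 2 higher (17.4% and 19.2% of all genes). Sox7 was sorted as moved further, but it was above background on 2 of 8 labelled-line channels and the size of its fall is not measured. The endocytic receptor gene Cubn had L of -2.38, and Gata6 was partly returned at -1.01. Among galectins and S100 proteins, 7 of 14 were higher in L and 3 lower (19.2% and 17.4% of all genes), with Lgals9 at 2.76, Lgals3 at 1.90 and S100a4 at -2.34. Chromosome X held 10.2% of the genes that moved further down and 8.06% of those that moved further up, against 3.69% of genes tested. Chromosome 13 held 15 of the 147 new genes with an assigned chromosome that were higher (10.2%), against 3.76% of genes tested. It carries the prolactin family, of which only 4 measured members were sorted as new.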
